A study of Mus musculus with 4 samples.

Results

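Gata2, Tal1, Lyl1, Lmo2, Fli1, Erg and Cbfa2t3 encode 7 transcription factors and partner proteins of the blood stem cell network. They were taken by gene symbol from the 31053 genes of the count table, and each symbol matched 1 row. Their RNA levels were compared across cell classes of the mouse aorta-gonad-mesonephros (AGM) region and between genotypes. The study held 2 libraries from wild type (WT) embryos and 2 from the miR-223-/- mutant (KO), which lacks the microRNA miR-223. Both groups were age-matched at embryonic day 10.5, and both were sorted for CD31+/C45- cells, where C45 is read here as CD45, the surface protein of blood cells encoded by Ptprc. The series title names hemogenic endothelium and myeloid cell formation as the processes of interest, and the labels do not say how many embryos went into a library or whether they shared litters. The p-values therefore measure only how far these libraries differ from each other, and that spread may be technical.

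TAL1 and LYL1 are basic helix-loop-helix proteins that bind E-box DNA as dimers with E proteins, and LMO2 is a LIM-domain bridge that joins such a dimer to a GATA factor through LDB1. FLI1 and ERG are ETS-family factors that bind GGAA-cored DNA and keep endothelial genes active, while the protein of Cbfa2t3, also called ETO2, is a corepressor carried by the TAL1 complex. These proteins are known to bind many of the same enhancers in blood progenitors, and the loss of Gata2, Tal1 or Lmo2 is known to stop or severely impair blood formation in the embryo.

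The mutant lacks a microRNA that pairs with messages through its seed, so the mature mouse miR-223-3p is shown first (RefSeq, GRCm38.p6, chrX:96242884-96242905, plus strand), with bases 2 to 8, the seed, in capitals.
mmu-miR-223-3p: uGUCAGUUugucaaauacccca
Matches that include bases 2 to 7 of the microRNA were searched in the annotated transcripts of the 7 genes (GENCODE M21, GRCm38). In the 3' UTR, the part of the message where such sites are usually counted, 2 of the genes carried a match of at least 7 bases, shown with the matched bases in capitals. Lmo2 had a match of 8 bases at chr2:103981330-103981337 (plus strand) in 4 of its 8 transcripts, and Tal1 had a match of 7 bases at chr4:115068863-115068869 (plus strand) in 3 of its 4 transcripts.
Lmo2 site: caggctagccatagtAACTGACAag
Tal1 site: actttgggaagtcccAACTGACcct
Tal1 held a further 6-base match in its 3' UTR at chr4:115070862-115070867 in 2 of 4 transcripts. The match in Lyl1, of 7 bases, lay in its 5' UTR, and that in Gata2, of 6 bases, in its coding sequence. No such match was found in Fli1, Erg or Cbfa2t3. Matches to bases 3 to 8 alone were not searched in any of the 7 genes. A match of letters is a description and does not show that the site is used.

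In RefSeq's table of promoter windows, 5 of the 7 genes had an entry (Gata2, Tal1, Lyl1, Erg and Cbfa2t3). The 250 bases upstream of a start were searched on both strands for an ETS motif with the letters CCGGAA, for a GATA motif with the letters AGATAA and for an E-box with the letters CAGCTG. Over 32851 such windows, 12% held the ETS motif, 9.99% the GATA motif and 13% the E-box. The Lyl1 window is shown because it held 2 matches to the motif of the family that includes FLI1 and ERG (GRCm38.p6, chr8:84701207-84701456, plus strand, matches in capitals).
Lyl1 promoter window: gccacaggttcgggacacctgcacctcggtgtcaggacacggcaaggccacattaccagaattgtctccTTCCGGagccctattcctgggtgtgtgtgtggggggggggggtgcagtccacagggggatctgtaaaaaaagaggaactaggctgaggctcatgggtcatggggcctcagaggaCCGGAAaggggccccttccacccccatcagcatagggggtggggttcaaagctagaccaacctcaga
A window of Cbfa2t3 (chr8:122699110-122699359) held 1 ETS match and 2 E-box matches, a window of Tal1 (chr4:115056176-115056425) held 1 GATA match, and so did a window of Erg (chr16:95459349-95459598).

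The libraries differed in depth and makeup. They held 3917, 11186, 6119 and 10299 barcodes and 95158639, 181682389, 109713066 and 167542930 UMIs (tags that each mark 1 captured RNA molecule). Every set of 4 values here is in the order WT replicate 1, WT replicate 2, KO replicate 1, KO replicate 2. After filtering, 2291, 6835, 4121 and 5845 cells were left, with median UMIs per cell of 30149, 18116, 20115 and 18616. Any pair of libraries shared 8 to 28 barcode sequences. The replicate 1 libraries of both genotypes held more mesenchymal-like cells (12.4% in WT, 9.9% in KO) than the replicate 2 libraries (2.82% and 3.47%). They also held more erythroid-like cells (2.05% and 1.82%, against 0.19% and 0.325%). KO replicate 1 stood apart in having an Xist UMI in 0.0728% of its cells, against 40.5% to 49.6% in the other libraries, and in holding 3.42% hemogenic endothelial-like cells, against 0.524% to 1.42%. The count table has no row for the miR-223 gene, so the genotype labels could not be checked on it.

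The cells fell into 29 clusters, which were formed without the 7 genes and named from fixed markers. Of the 14 classes tested, 8 were endothelial: arterial-like, venous-like, neural capillary-like, sinusoidal or lymphatic-like and endocardial-like, plus clusters called by a leading gene, namely Kcne3-led, Cdc20-led and Bmp4-led endothelium. The other 6 were hemogenic endothelial-like, megakaryocyte-like, erythroid-like, primordial germ cell-like, mesenchymal-like and neural-like. Unnamed clusters (153, 518, 275 and 411 cells) were left out, as were Fst-led (4, 53, 9 and 43 cells) and Nts-led endothelium (5, 22, 1 and 26 cells). Fst-led endothelium had a higher mean log2 fold of the endocardial markers than the endocardial-like cluster (3.26 against 1.85). The endocardial-like class may thus hold only part of such cells. The venous-like cluster was led by histone genes of dividing cells and had 0 venous markers among its top 10 genes, so its name is the weakest. The rarer classes were small: 12, 77, 141 and 83 hemogenic endothelial-like cells, 15, 20, 10 and 40 megakaryocyte-like cells, and 47, 13, 75 and 19 erythroid-like cells. Erythroid-like cells of WT replicate 1 and KO replicate 1 came mostly from one cluster and those of the other libraries from another, and 90 of the 91 primordial germ cell-like cells of KO replicate 1 came from a cluster that held 5, 8 and 5 cells of the other libraries. The hemogenic endothelial-like class was mixed and split at a finer clustering (Leiden resolution 2). A cluster of 5, 44, 55 and 51 cells had Cdh5 at 509, 394, 501 and 515 CPM (defined below). The other, of 7, 33, 83 and 31 cells, had Cdh5 at 209, 182, 283 and 193 CPM. Its leading genes included the blood genes Mpo, Prtn3 and Myb. Spi1, Runx1, Lyz2 and Coro1a were among the leading genes of both. Ptprc stood at 41.7, 14, 7.31 and 10.1 CPM in the cluster with the higher Cdh5. In the other it stood at 5.97, 26.1, 4.78 and 21.5 CPM. As a check of the sort and the names, Ptprc stood at 15.4, 20.4, 5.52 and 15.2 CPM in hemogenic endothelial-like cells, and the endothelial cadherin gene Cdh5 at 288, 282, 359 and 367 CPM there against 992, 974, 888 and 904 CPM in arterial-like cells.

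Levels are given as CPM, the UMIs of a gene as a share of the UMIs summed over the cells of a class in a library, in parts per 1000000. A class level cannot tell more RNA per cell from more cells with the RNA, and levels of different genes are not compared, since a 3' count is not scaled by length. Neighbouring classes in the order of means are said to differ beyond the spread where the gap between their means is larger than either SD over the 4 libraries. Leaving out KO replicate 1 changed the class with the highest mean for 0 of the 7 genes, while leaving out WT replicate 1 moved that of Erg from arterial-like to neural capillary-like cells, at 22.6 CPM.

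**Figure D1:**
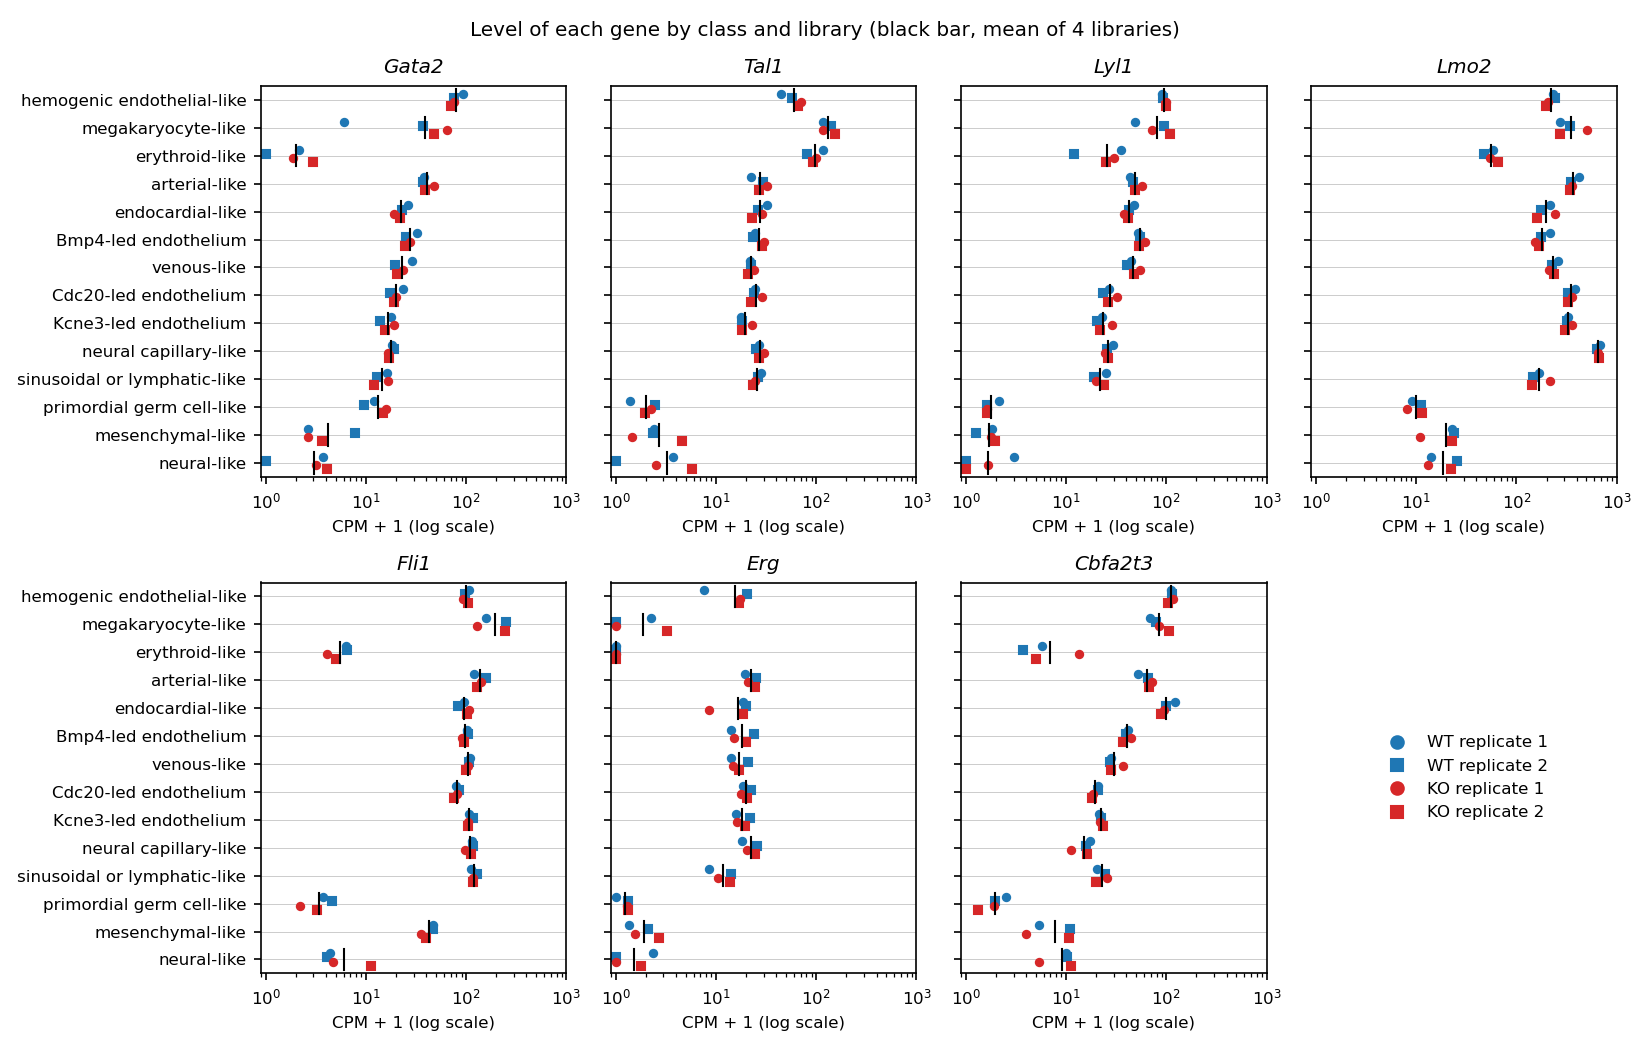
CPM of each of the 7 genes (horizontal axis, log scale of CPM + 1) by cell class (rows). Points are libraries (blue WT, red KO, circles replicate 1, squares replicate 2) and black bars are the mean of the 4. Gata2, Lyl1 and Cbfa2t3 were at their highest mean in hemogenic endothelial-like cells, Tal1 and Fli1 in megakaryocyte-like cells, Lmo2 in neural capillary-like cells and Erg in arterial-like cells.

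Gata2, a zinc-finger factor needed for blood stem cells to arise, was highest in hemogenic endothelial-like cells. Its level there was 92.3, 74.3, 75 and 69 CPM, against 37, 36.3, 46.6 and 38.1 CPM in arterial-like cells, the next class. Every hemogenic value lay above every arterial one. Megakaryocyte-like cells overlapped the arterial range with 5.03, 36.3, 64.1 and 46.5 CPM, a spread set by the low value of WT replicate 1. The other endothelial classes followed with no step beyond the spread, from a mean of 26.5 CPM in Bmp4-led endothelium down to 13.5 CPM in sinusoidal or lymphatic-like cells. Primordial germ cell-like cells held 11.2, 8.58, 14.8 and 14 CPM, and mesenchymal-like, neural-like and erythroid-like cells had means of 3.19, 2.02 and 1.02 CPM.

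Tal1, the helix-loop-helix factor that starts the blood program, was highest in megakaryocyte-like cells at 117, 138, 115 and 153 CPM and second in erythroid-like cells at 115, 79.2, 99.5 and 91.8 CPM. Hemogenic endothelial-like cells came next at 44, 56.3, 68.8 and 64.7 CPM. The means of these 3 classes differed beyond the spread, but hemoglobin RNA took 45.5%, 49.8%, 36% and 44.1% of the UMIs of erythroid-like cells. With the hemoglobin genes left out of the totals, Tal1 stood at 210, 158, 156 and 164 CPM in erythroid-like cells, above the 115 to 153 CPM of megakaryocyte-like cells. The order of the top classes of Tal1 thus depended on whether hemoglobin RNA was in the total. In endothelium it lay between means of 18.3 CPM (Kcne3-led) and 26.6 CPM (endocardial-like), and in neural-like, mesenchymal-like and primordial germ cell-like cells between 1.01 and 2.24 CPM.

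Lyl1, the close relative of Tal1, had its highest mean in hemogenic endothelial-like cells, with 90.1, 92.2, 98.1 and 99.4 CPM. Megakaryocyte-like cells overlapped this range with 47.8, 93.6, 70.9 and 109 CPM. A second tier was endothelial: Bmp4-led endothelium had 51.2, 53.8, 59.7 and 52.4 CPM, and arterial-like, venous-like and endocardial-like cells had means of 47.8, 46 and 41.4 CPM. The remaining endothelial classes lay lower, at means of 21 to 26.2 CPM, and erythroid-like cells varied from 10.9 to 34.2 CPM. With the hemoglobin genes left out of the totals, erythroid-like cells varied from 21.8 to 62.9 CPM (mean 43.2 CPM), overlapping that tier. Outside blood and endothelium the mean was at most 0.768 CPM.

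Lmo2, the bridging protein, had a different order. It was highest in neural capillary-like cells, at 676, 635, 653 and 664 CPM, above the 417, 353, 359 and 345 CPM of arterial-like cells in each library. Hemogenic endothelial-like cells were near the middle at 229, 243, 207 and 195 CPM, overlapping venous-like cells (213 to 259 CPM). Megakaryocyte-like cells ranged from 272 to 506 CPM and erythroid-like cells from 46.4 to 63.9 CPM (84.7 to 114 CPM with the hemoglobin genes left out of the totals). Mesenchymal-like cells had 21.6, 22.7, 9.95 and 21.8 CPM, and primordial germ cell-like cells the lowest mean, 8.99 CPM.

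Fli1, an ETS factor of vessels and platelets, was present in every endothelial class. Arterial-like cells led the endothelial classes at 120, 156, 140 and 127 CPM, and Cdc20-led endothelium, marked by genes of cell division, had the lowest endothelial mean at 79.5 CPM. Megakaryocyte-like cells reached 157, 247, 128 and 244 CPM and overlapped the arterial range. Mesenchymal-like cells, which are neither vascular nor blood, held 46.3, 45.9, 34.5 and 38.7 CPM, below every endothelial class and above neural-like cells (mean 5.1 CPM). In erythroid-like cells Fli1 was 5.31, 5.46, 3.11 and 3.99 CPM.

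Erg, the ETS factor closest to Fli1, was found mainly in endothelial classes, the hemogenic one included. The mean was 21.5 ± 2.82 CPM (SD, n = 4 libraries) in arterial-like cells and 10.7 CPM in sinusoidal or lymphatic-like cells, and neighbouring endothelial classes did not differ beyond the spread. Hemogenic endothelial-like cells had 6.59, 19.2, 16.2 and 15.8 CPM. Unlike Fli1, Erg was near absent from megakaryocyte-like cells, with 1.26, 0, 0 and 2.29 CPM. Erythroid-like cells had 0 UMIs of Erg in 4811243 UMIs over the 4 libraries, which allows up to 0.624 CPM (3 counts, counting error only).

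Cbfa2t3, the corepressor gene, was highest in hemogenic endothelial-like cells (110, 113, 117 and 104 CPM) and in endocardial-like cells (120, 98, 93.1 and 86.7 CPM), whose ranges overlapped. Megakaryocyte-like cells had 67.9, 78.3, 84.4 and 105 CPM. Arterial-like cells had 51.1, 65.2, 71.6 and 65.8 CPM, above every value of the remaining endothelial classes. Within endothelium the level fell stepwise from arterial-like through Bmp4-led and venous-like to sinusoidal or lymphatic-like cells, each step beyond the spread. Neural capillary-like cells, the class with the highest Lmo2, had the lowest endothelial Cbfa2t3 at 16.2, 14.9, 10.3 and 15.2 CPM. Erythroid-like cells had a mean of 5.97 CPM.

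A cluster of hematopoietic progenitor-like cells held 15, 2, 6 and 2 cells, too few for a test. Its leading genes included Rac2, Myb and Ikzf1 of that marker list but also Klf1 and Gata1 of the erythroid list. The name is therefore loose, and the values describe these few cells alone. In this cluster Tal1 stood at 98.6, 80.8, 149 and 66.1 CPM, Lmo2 at 472, 545, 635 and 344 CPM and Cbfa2t3 at 105, 70.7, 90.7 and 26.4 CPM. Lyl1 stood at 69.9, 20.2, 90.7 and 52.9 CPM and Gata2 at 8.48, 0, 6.48 and 0 CPM. Erg had 0 UMIs in each library, and Fli1 was found in WT replicate 1 at 7.42 CPM and in KO replicate 1 at 32.4 CPM.

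Hemogenic endothelium is the vessel wall that turns into blood, and in this region much of it lies in the aorta, so the hemogenic endothelial-like class was set against arterial-like cells. The class is the mixture described above. In the finer cluster with the higher Cdh5, Tal1 stood at 83.4, 57.2, 70 and 64.5 CPM and Lmo2 at 434, 245, 192 and 179 CPM. In the finer cluster with the lower Cdh5, Tal1 stood at 29.8, 55.5, 67.9 and 64.4 CPM and Lmo2 at 155, 241, 212 and 206 CPM. The ranges of both genes thus overlapped between the finer clusters. Of the 7 genes, Gata2, Tal1, Lyl1 and Cbfa2t3 were higher in the hemogenic class and Lmo2, Fli1 and Erg lower, each in 4 of 4 libraries. Of 11452 genes tested, 61.6% were called, 31.3% higher and 30.3% lower, so a call by itself says little in this pair. Log2 differences were 1.13 ± 0.111 (SE) for Tal1, 0.96 ± 0.0895 for Lyl1, 0.89 ± 0.103 for Gata2 and 0.75 ± 0.085 for Cbfa2t3, with edgeR adjusted p-values of 1.25e-09, 4.93e-10, 2.45e-08 and 1.68e-08. On the lower side they were -0.76 ± 0.0695 for Lmo2 (edgeR adjusted p = 3.3e-10) and -0.52 ± 0.0841 for Fli1 (adjusted p = 6.67e-06). Erg, at -0.47 ± 0.163, had an edgeR adjusted p of 0.0148, which became 0.0559 with DESeq2, 0.0517 without the library as a block and 0.0759 without KO replicate 2 (range over 13 alternatives 0.00594 to 0.0759). So of the genes of the TAL1 complex, Tal1, Lyl1, Gata2 and Cbfa2t3 were higher and the bridge gene Lmo2 lower. Here and in the pairs below, classes were drawn from genes other than the 7 in the same cells, so the p-values describe the size of a difference against the libraries' spread and do not test the classes independently.

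**Figure D2:**
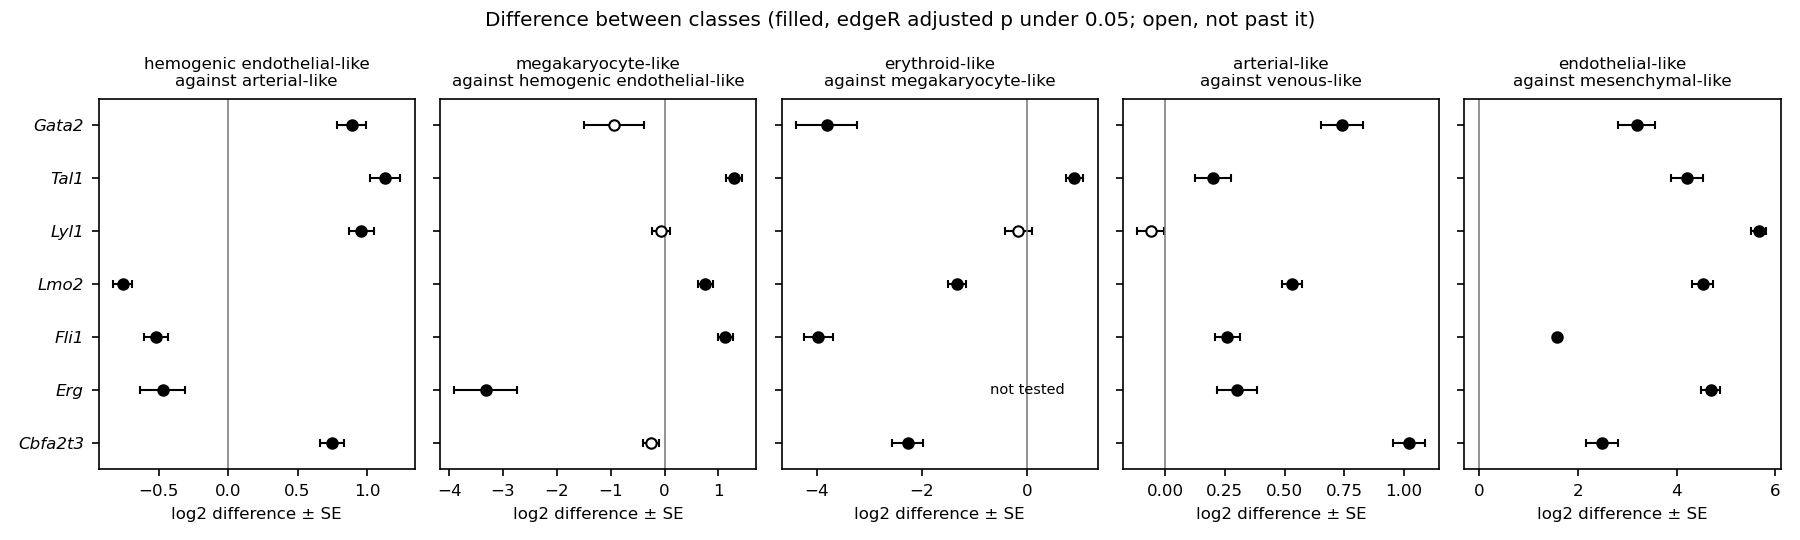
Log2 difference (horizontal axis, edgeR estimate with its SE as the bar) of each of the 7 genes in 5 pairs of classes. Filled points have an adjusted p under 0.05. In hemogenic endothelial-like against arterial-like cells 4 genes lie to the right of 0 and 3 to the left, and in endothelial-like against mesenchymal-like cells all 7 lie to the right.

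Megakaryocytes and hemogenic endothelium are both linked to blood formation, and 4 of the 7 genes differed between these classes. Tal1 was higher in megakaryocyte-like cells, with a log2 difference of 1.29 ± 0.147 (SE; edgeR adjusted p = 4.18e-07), as were Fli1 with 1.13 ± 0.143 (adjusted p = 2.9e-06) and Lmo2 with 0.76 ± 0.143 (adjusted p = 0.00107). Erg was lower, at -3.32 ± 0.583 (edgeR adjusted p = 0.000106). Gata2 at -0.94 (adjusted p = 0.269), Lyl1 at -0.07 (adjusted p = 0.76) and Cbfa2t3 at -0.25 (adjusted p = 0.189) did not pass. In this pair 40.1% of 8889 genes were called, 19.5% higher and 20.6% lower. Of the ETS pair, Fli1 was thus higher and Erg lower in megakaryocyte-like cells. The Lmo2 call was lost in 1 of 13 alternatives, with doublets kept (0.64, edgeR adjusted p = 0.0953, range 1.45e-10 to 0.0953).

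Red cells and platelet-forming cells share a progenitor, and 4 of the 6 genes tested were lower in erythroid-like than in megakaryocyte-like cells (of 6973 genes, 47.9% were called, 25.8% lower and 22.1% higher). The edgeR log2 differences were -3.97 ± 0.276 (SE) for Fli1 (adjusted p = 3.75e-27), -3.81 ± 0.585 for Gata2 (adjusted p = 1.27e-08), -2.27 ± 0.299 for Cbfa2t3 (adjusted p = 5.02e-11) and -1.33 ± 0.177 for Lmo2 (adjusted p = 1.95e-08). Erg was too low to test. Tal1 had no settled direction: edgeR with TMM scaling gave 0.90 ± 0.168 (adjusted p = 2.03e-06), although its CPM was lower in erythroid-like cells in 4 of 4 libraries. Scaling by total counts gave -0.44 (adjusted p = 0.033), and total counts without the hemoglobin genes gave 0.41 (adjusted p = 0.0291), and over 13 alternatives the adjusted p lay between 1.67e-06 and 0.033. Lyl1 was at -0.17 (edgeR adjusted p = 0.63) under TMM and at -1.51 (adjusted p = 4.96e-09) under total counts, with a range over 13 alternatives of 4.96e-09 to 0.95. The median log2 difference of all genes was -0.07 under TMM, -1.38 under total counts and -0.52 under total counts without hemoglobin.

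Arterial-like cells were next set against venous-like cells, the class with the weakest name, led by histone genes of dividing cells. Bmp4-led endothelium had a higher mean log2 fold of the venous markers (0.74 against 0.42). It was not tested against arterial-like cells. Its means were 25.6 CPM for Tal1 and 54.3 CPM for Lyl1, against 26.6 and 47.8 CPM in arterial-like cells. Its means of the other genes lay below the arterial ones. The part of cell division in this pair was not tested. Higher in arterial-like cells were Cbfa2t3, with a log2 difference of 1.02 ± 0.0672 (SE; edgeR adjusted p = 2e-10), Gata2 with 0.74 ± 0.0872 (adjusted p = 1.92e-06) and Lmo2 with 0.53 ± 0.0421 (adjusted p = 2.53e-09). Smaller differences were found for Erg (0.30 ± 0.0834, edgeR adjusted p = 0.00334), Fli1 (0.26 ± 0.0523, adjusted p = 0.000287) and Tal1 (0.20 ± 0.0752, adjusted p = 0.0233). Lyl1 did not pass (-0.06, edgeR adjusted p = 0.331). So 6 of 7 were higher and 0 lower, where of 12367 genes 71.5% were called, 36% higher and 35.5% lower. Tal1 kept its call in 5 of 12 alternatives (edgeR adjusted p 0.00104 to 0.15) and Erg in 10 of 12 (0.000171 to 0.0872).

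All 7 genes were higher in the pooled endothelial-like cells than in mesenchymal-like cells, where of 14726 genes 71.4% were called, 37.5% higher and 33.9% lower. The edgeR log2 differences ranged from 1.59 ± 0.061 (SE) for Fli1 (adjusted p = 3.37e-14) and 2.49 ± 0.324 for Cbfa2t3 (adjusted p = 0.00301) to 4.69 ± 0.194 for Erg and 5.66 ± 0.155 for Lyl1. Between these lay Gata2 at 3.19, Tal1 at 4.21 and Lmo2 at 4.53. Droplets can carry free RNA from burst cells, so each gene's mesenchymal level was set against that of 12 pan-endothelial markers as a percentage of its own endothelial level. The markers had medians of 2.73% to 6% over the libraries and a highest value of 11.5%. Fli1 stood at 43.8%, 40.6%, 33.4% and 37.6% and Cbfa2t3 at 16.3%, 35.5%, 10.4% and 34.6%, above every marker in each library. Lyl1, at 0.92% to 3.01%, and Lmo2, at 2.74% to 6.64%, did not exceed the markers' highest value in any library, nor did Erg, at 2.47% to 8.74%. Gata2 was mixed, at 7.6%, 36.5%, 7.66% and 13.8%: it was above every marker in 3 libraries, in WT replicate 1 barely (highest marker 7.58%), and not in KO replicate 1 (highest marker 8.25%). Tal1, at 6.65%, 6.13%, 1.72% and 16.6%, was above every marker in KO replicate 2 alone. Of mesenchymal-like cells thinned to 5000 UMIs, Fli1 had a UMI in 18.9%, 20.9%, 16.7% and 20.3% (exact binomial 95% intervals within 13.2% to 27.4%; unthinned 45.3% to 63.2%). In primordial germ cell-like cells, thinned alike, it had one in 2.27%, 1.4%, 0% and 2.04%, with no interval reaching above 12%.

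The same measure was taken in other classes outside the vessels. Gata2 in primordial germ cell-like cells stood at 50.7%, 46.4%, 68.4% and 72.5% of its endothelial level, above each of the 12 markers, whose highest values were 25.6% to 35.7%. Cbfa2t3 in neural-like cells stood at 33.6%, 32.7%, 15.2% and 36.4%, also above each marker in each library. In neural-like cells Gata2 was above each marker in 3 libraries, Tal1 in 2 and Erg in 1, and Lyl1, Lmo2 and Fli1 in none. In those libraries Gata2 had 4, 10 and 4 UMIs, Tal1 4 and 6 and Erg 2. These counts are too low to place the genes above or below the markers. Cbfa2t3 had 13, 9, 20 and 13 UMIs there.

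The number of the 7 genes with at least 1 UMI was counted per cell after thinning each cell to 5000 UMIs. The mean of this number adds up the detection rates of the single genes. It therefore does not show whether the genes occur in the same cells. Megakaryocyte-like cells held 2.58 ± 0.284 genes (SD, n = 4 libraries), hemogenic endothelial-like cells 2.36 ± 0.172 and arterial-like cells 2.15 ± 0.113. These were followed by neural capillary-like cells at 1.84, and the other endothelial classes lay between 1.36 and 1.69. Erythroid-like cells held 0.816, and mesenchymal-like, neural-like and primordial germ cell-like cells 0.29, 0.165 and 0.158. The 5000 UMIs included hemoglobin RNA, 36% to 49.8% of the UMIs of erythroid-like cells, which left fewer for other genes in that class. From 33.3% to 49.3% of hemogenic endothelial-like cells had at least 3 of the genes, and from 30.8% to 40.4% of arterial-like cells. The shares that the separate detection rates alone would give were not computed, so no co-occurrence is read from these. Between KO and WT, the exact two-sided permutation test gave p of at least 0.333 in each class, and 0.333 is the smallest it can give with 2 libraries against 2.

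**Figure D3:**
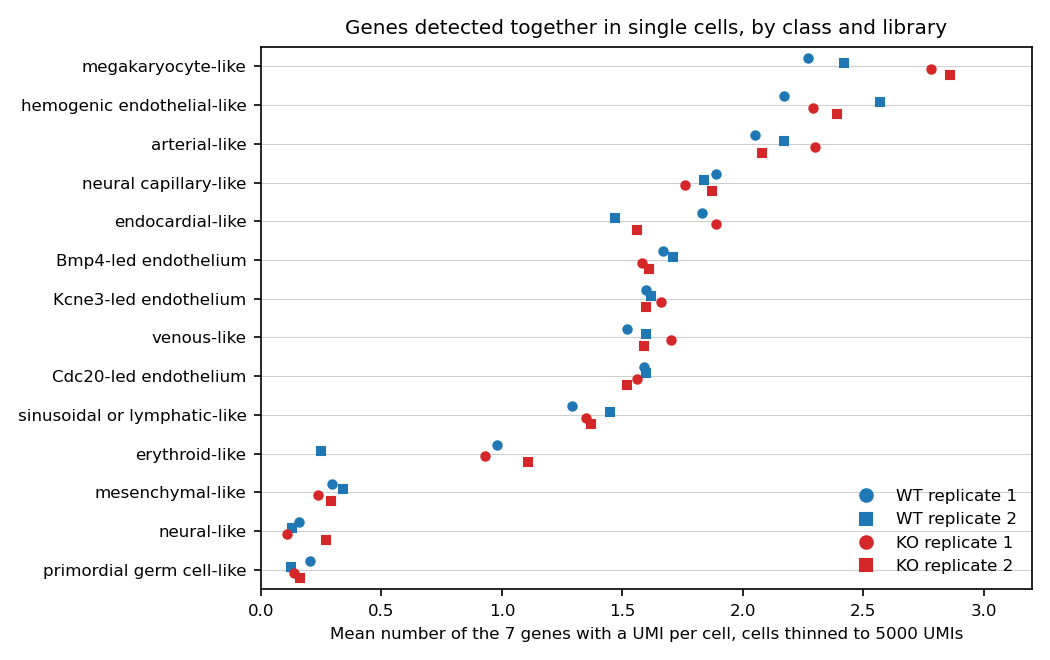
Mean number of the 7 genes with at least 1 UMI per cell after thinning to 5000 UMIs (horizontal axis), by class (rows). Points are libraries (blue WT, red KO, circles replicate 1, squares replicate 2). Every library lies above 2 in megakaryocyte-like, hemogenic endothelial-like and arterial-like cells, and the 3 classes outside blood and endothelium have means of at most 0.29.

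Across the 14 class means, log-scaled, the 7 genes were alike to different degrees. The highest Pearson r was 0.91, between Tal1 and Lyl1, the related helix-loop-helix genes, and the lowest 0.31, between Tal1 and Erg. Fli1 and Erg, the ETS pair, had r = 0.75, below Lyl1 and Lmo2 at 0.87 and Lmo2 and Fli1 at 0.85. Among 10677 genes, those closest to Erg were Thsd1 (r = 0.993), Ecscr (0.992) and Fgd5 (0.989), and those closest to Fli1 were Pear1 (0.974), Trappc6a (0.964) and Emilin1 (0.958). Tal1 was closest to Ehbp1l1 (0.964), Ifi35 (0.944) and Zfpm1 (0.943), and Lyl1 to 5033406O09Rik (0.958), Ehbp1l1 (0.952) and Spns2 (0.951). For Gata2 these were Efr3a (0.966), Sigirr (0.955) and Arpc1b (0.952), for Lmo2 Pon2 (0.970), Marc2 (0.944) and Dynlt3 (0.942), and for Cbfa2t3 they included Stat3 (0.933) and Emp3 (0.924). These correlations are descriptions over 14 classes that share libraries and in part share a vascular identity.

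The rest of the pathway was followed by 6 lists of 71 genes in all. Unlike the 7 genes, list genes could enter the clustering and some are markers that named a class, so their differences between classes are descriptions. Counts of list genes are read beside the shares of all genes called. Between hemogenic endothelial-like and arterial-like cells, the other blood transcription factors were mostly higher in the hemogenic class: 15 of 19 tested rose, 3 fell and 1 did not pass, where 31.3% of all genes were called higher and 30.3% lower, with a median log2 difference of 2.25 against 0.02 over all genes. Among them were Myb (8.09), Spi1 (6.68) and Runx1 (6.19), which lead or mark the cluster and are no independent evidence. The genes described as targets of the network went the other way, with 13 of 18 lower, 3 higher and a median of -0.99. The fallen ones were vessel genes such as Robo4 (-3.04) and Kdr (-2.47), and the risen ones were Itga2b (2.61) and, both markers of the class, Kit (2.54) and Procr. The 4 Id genes, whose proteins block helix-loop-helix dimers, were lower, from Id4 (-4.17) and Id3 (-1.99), with a median of -1.66. Of the other vascular ETS factors, Elf1 was higher (1.45), 3 of 5 were lower and Ets1 fell by 2.48. The complex partners split into 3 higher, 3 lower and 6 not called, and of 10 corepressors 4 were higher, 0 lower and 6 not called.

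Megakaryocyte-like cells had higher Gata1, the GATA factor of platelets and red cells, than hemogenic endothelial-like cells (log2 difference 5.99), at 128, 207, 132 and 156 CPM against 8.79, 0.599, 0.649 and 5.43 CPM. Gata1 was the 1 complex partner of 12 that was higher, and 6 were lower, where 19.5% of all genes were called higher and 20.6% lower. The other blood transcription factors were lower in 12 of 19 and higher in 5, Gfi1b among them (3.79). Of 17 described targets 4 were higher and 12 lower. The 4 included the platelet genes Pf4 (9.52) and Itga2b (4.81), which are markers that named the class, and the erythropoietin receptor gene Epor (4.02). Under total-count scaling the shares of all genes were 15.9% higher and 27.3% lower, and the described targets again gave 4 higher and 12 lower.

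Between erythroid-like and megakaryocyte-like cells the list values moved with the scaling. Klf1, the erythroid regulator and a marker of the class, was higher by 5.99 under TMM and by 4.64 under total counts, and the complex partner Runx1t1 by 4.92 and 3.61. Gata1, also an erythroid marker, stood at -0.02 under TMM, where it did not pass, at -1.35 under total counts (edgeR adjusted p = 2.1e-10) and at -0.51 under total counts without the hemoglobin genes (adjusted p = 0.0112). Epor, another erythroid marker, went from 1.99 under TMM to 0.64 under total counts. Of 15 other blood transcription factors 10 were lower and 2 higher under TMM, where 25.8% of all genes were called lower and 22.1% higher. Under total counts 12 were lower and 2 higher, where 82.8% of all genes were called lower and 3.9% higher, so that count is no result about the list.

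Against venous-like cells, arterial-like cells were higher in 13 of 18 described targets and lower in 1, and higher in 10 of 16 other blood transcription factors and lower in 4, where 36% of all genes were called higher and 35.5% lower. Under total-count scaling the shares of all genes became 44.6% higher and 28.7% lower. Against mesenchymal-like cells, endothelial-like cells were higher in 16 of 18 described targets and lower in 0 (median 4.15 against 0.02 over all genes), and higher in 5 of 6 other vascular ETS factors and lower in 0. Of 17 other blood transcription factors 5 were higher there and 8 lower, where 37.5% of all genes were called higher and 33.9% lower. Under total-count scaling those shares were 27.1% higher and 45.9% lower, the targets gave the same counts, and of the blood factors 4 were higher and 9 lower.

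The genotype comparison asked whether the level of these genes differed between the KO and WT libraries within a class. Whether a difference came from the loss of miR-223 or from other differences between the libraries was not tested. No member passed in any class. With so few libraries per genotype, the lack of a call does not show that a level was unchanged. Over 14 classes 81 tests of a member were possible, 0 were called by edgeR and 0 by DESeq2, and 1 had an unadjusted p under 0.05. Over all genes 0.0415% of 139692 tests were called. The log2 differences (KO against WT) had a median of -0.02, with 34 above and 44 below 0, and 76 of the 81 lay within 0.5 of 0. Both KO libraries lay beyond both WT libraries in 25 of the 81, 11 above and 14 below, where 24.8% of all genes' tests did so, 10.7% above and 14.1% below. Lmo2 could be tested in 14 classes, Gata2, Fli1 and Cbfa2t3 in 12, Tal1 and Lyl1 in 11 and Erg in 9. The others were under the filter on low counts. Without KO replicate 1, the library that stood apart, the number of members called was again 0 in each class.

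**Figure D4:**
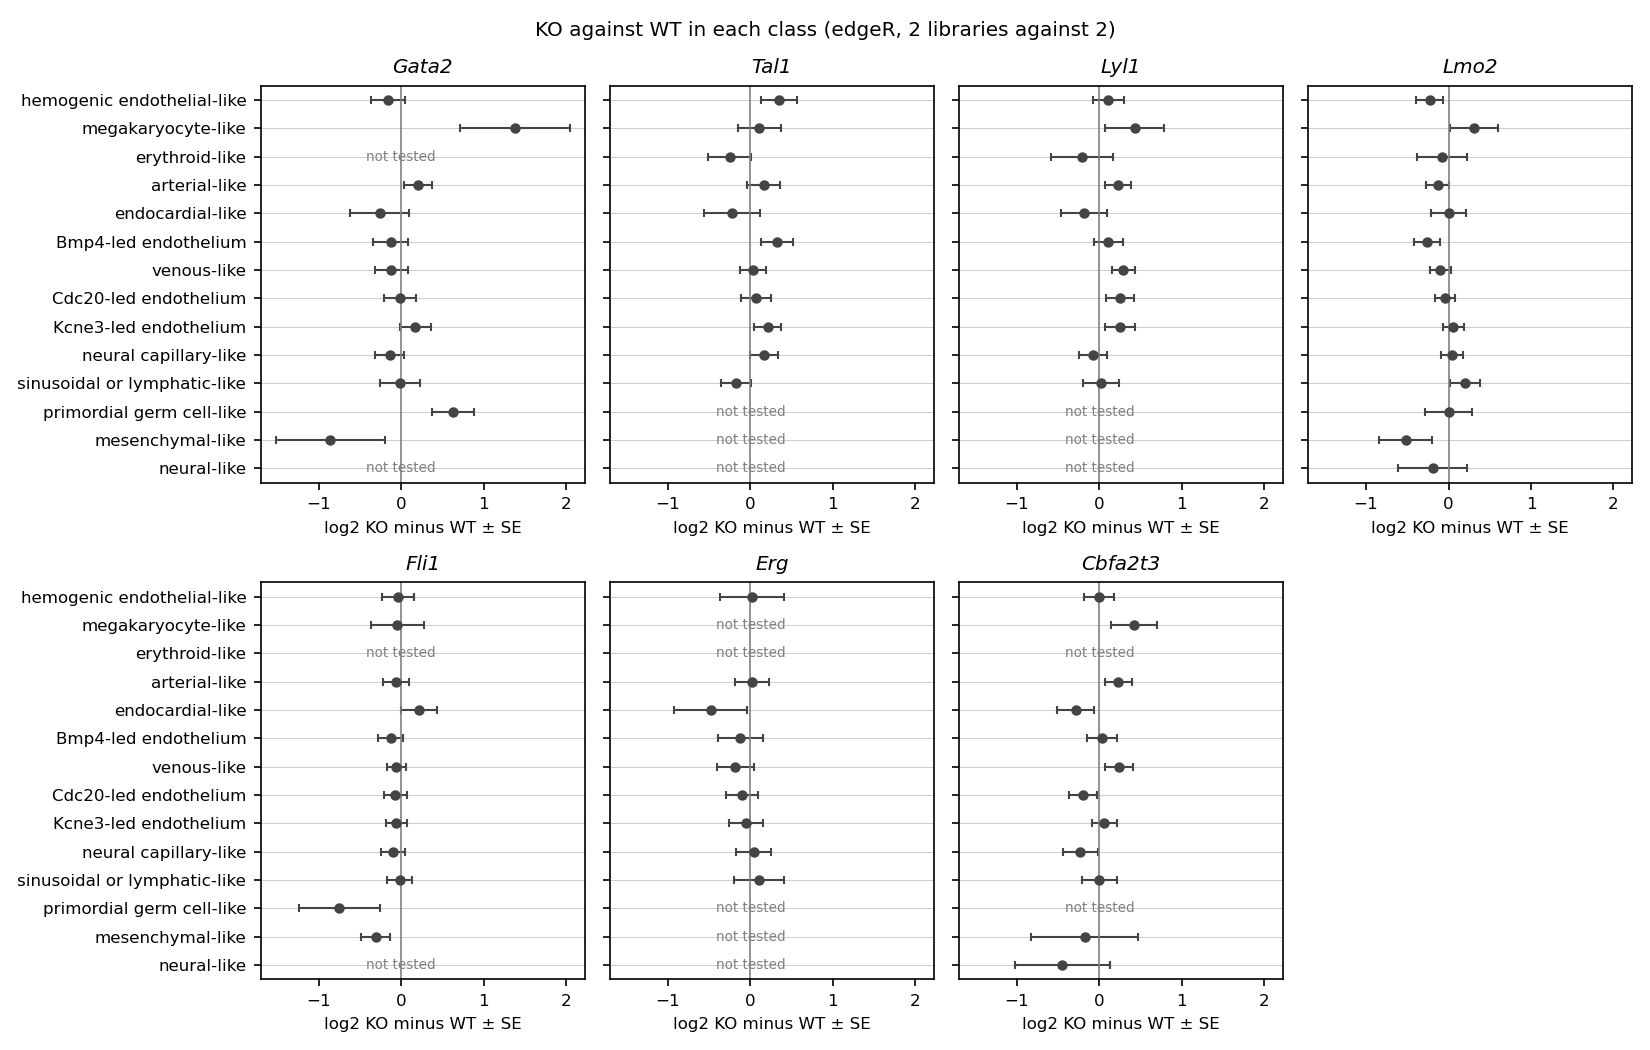
Log2 difference of KO against WT (horizontal axis, edgeR estimate with its SE as the bar) for each of the 7 genes in each class where it was tested. No test has an adjusted p under 0.05, and the value farthest from 0 is that of Gata2 in megakaryocyte-like cells, at 1.38.

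Pooled endothelial-like cells, where 0.144% of 14552 genes were called, had differences from -0.07 to 0.20. Lyl1 was 31 and 29.3 CPM in WT and 36.4 and 32.1 CPM in KO, a log2 difference of 0.20 ± 0.141 (SE, edgeR adjusted p = 0.9999). Both KO values lay above both WT values. Fli1 lay the other way, with 106 and 113 CPM in WT and 103 and 103 CPM in KO (-0.07 ± 0.122). The genes with a seed match of at least 7 bases in the 3' UTR were Lmo2, at 353 and 341 CPM in WT and 363 and 351 CPM in KO (0.06 ± 0.116), and Tal1, at 21.7 and 22 CPM in WT and 25.8 and 21.9 CPM in KO (0.14 ± 0.147). Both overlapped between genotypes. Gata2, Erg and Cbfa2t3 overlapped too, at 0.02, -0.02 and 0.07.

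Within hemogenic endothelial-like cells, where 0.0215% of 9306 genes were called, the log2 differences ran from -0.23 to 0.35. Tal1 was 44 and 56.3 CPM in WT and 68.8 and 64.7 CPM in KO, a difference of 0.35 ± 0.222 (SE; edgeR adjusted p = 0.9998). Both KO values were above both WT values. Lmo2 was 229 and 243 CPM in WT and 207 and 195 CPM in KO (-0.23 ± 0.163), with both KO values below. Thus the 2 genes with a seed match of at least 7 bases in the 3' UTR lay on opposite sides of 0, and neither passed. Gata2 was at -0.16 ± 0.202, Lyl1 at 0.11 ± 0.187, Fli1 at -0.04, Erg at 0.02 ± 0.391 and Cbfa2t3 at -0.01. Lyl1, which had no such match in its 3' UTR, also had both KO values (98.1 and 99.4 CPM) above both WT values (90.1 and 92.2 CPM). In arterial-like cells the 3 genes with both KO libraries above were Gata2 (0.20 ± 0.168), Lyl1 (0.23 ± 0.159) and Cbfa2t3 (0.23 ± 0.164). Over all genes and the 14 classes 10.7% of tests had both KO libraries above. The share within arterial-like cells is not given here, so that count is no result about the 7 genes. At the finer clustering the cluster with the lower Cdh5 held 7 of 12, 33 of 77, 83 of 138 and 31 of 82 hemogenic endothelial-like cells. The part of this makeup in the genotype values was not tested. The difference between both genotype effects, hemogenic minus arterial, was tested as an interaction. For 0 of the 7 genes did it pass, where 0.0786% of 11452 genes did, and the largest was -0.36 ± 0.199 for Gata2 (SE).

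Megakaryocyte-like cells gave the largest difference of the 81, Gata2 at 5.03 and 36.3 CPM in WT and 64.1 and 46.5 CPM in KO. The log2 difference was 1.38 ± 0.667 (SE; edgeR adjusted p = 0.9999). It rested on WT replicate 1, which had 15 such cells: without WT replicate 2 it was 3.39 (edgeR adjusted p = 8.4e-05, the lone WT library being assumed to vary like the KO pair), and without WT replicate 1 it was 0.51. Of 11 alternatives, 1 called it, and the adjusted p ranged from 8.4e-05 to 1. Cbfa2t3 in these cells was 67.9 and 78.3 CPM in WT and 84.4 and 105 CPM in KO (0.42 ± 0.284). Fli1, the most one-sided of the 7 genes, had a difference below 0 in 11 of the 12 classes tested, none of them called. The classes share the same 4 libraries. Over all genes and classes 14.1% of tests had both KO libraries below, and the share of genes below 0 in as many classes was not counted. No direction is therefore read from these counts. Both KO libraries of Fli1 lay below in 6 classes. Those 6 were Kcne3-led endothelium and venous-like cells (-0.06 in each), neural capillary-like cells (-0.10), Bmp4-led endothelium (-0.13), mesenchymal-like cells (-0.31 ± 0.178) and primordial germ cell-like cells. In the last Fli1 was 2.71 and 3.56 CPM in WT and 1.23 and 2.27 CPM in KO (-0.75). Gata2 in these cells was 11.2 and 8.58 CPM in WT and 14.8 and 14 CPM in KO, a log2 difference of 0.63 ± 0.256 (edgeR adjusted p = 0.9997), the test with the one unadjusted p under 0.05. Since 90 of the 91 such cells of KO replicate 1 came from a cluster rare in the other libraries, the part of that in the Gata2 and Fli1 values was not tested.

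The 6 lists gave 784 further tests of KO against WT over the 14 classes, of which 0 were called by edgeR and 29 had an unadjusted p under 0.05. In hemogenic endothelial-like cells 14 of 17 described targets lay above 0, with a median log2 difference of 0.25 against -0.01 over all genes, and 3 had an unadjusted p under 0.05. In pooled endothelial-like cells 3 of 19 lay above 0, with a median of -0.12 against 0.00. The shares of all genes above 0 or with an unadjusted p under 0.05 were not counted. These list counts therefore have only the medians as background, and no direction is read from them. The described targets include Kit and Procr, markers of the hemogenic class, and vessel genes such as Cdh5. The hemogenic endothelial-like class of KO replicate 1 is the largest of the 4 libraries. Its part in these values, and that of the makeup of the class, was not tested.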

How the data were processed

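The 4 libraries were made with the 10x Genomics Chromium 3' chemistry, v3. Deposited for each is a matrix of UMI counts, not normalized, written by Cell Ranger 3.1.0 per the file headers. Cell Ranger and Seurat 4 are named in the submitters' processing notes. Build, annotation and strand setting were not given in the sources used here, so genes that overlap others (Lyl1, Lmo2, Fli1 and Cbfa2t3 in GENCODE M21) are less certain.

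Barcodes needed 1000 genes or more and less than 10% mitochondrial UMIs. Doublets, scored against simulated ones, were removed at 0.8% per 1000 barcodes (3.78%, 10.7%, 5.42% and 9.35% of cells). Clustering (2000 variable genes without the 7 members, 40 components, 20 neighbours, Leiden resolution 1, Python 3.11.15, leidenalg 0.10.2) was followed by naming from 18 marker lists. The limits on marker folds (log2 of 1.5, or 0.4 among endothelial clusters) and the rule that a name needs at least as many of its own markers among the top 10 genes as of any other were set after the clusters were seen. Counts were summed per library and class where each library held at least 10 cells, and tested with edgeR 4.0.16 (quasi-likelihood, TMM, filterByExpr, Benjamini-Hochberg over all genes, threshold 0.05) in R 4.3.3. Class pairs carried the library as a block. DESeq2 1.42.0 and other settings were alternatives. Counts were also simulated with a dispersion of 0.01 and log2 changes of 1 and 2 in either direction. In pooled endothelial-like cells (14610 genes) 96% to 100% of changed genes were recovered, with 6 false calls. In hemogenic endothelial-like cells (9237 genes) 84% to 100% were recovered, with 13 false calls. These rates hold for that dispersion only. Intervals and limits for 0 counts cover counting error only.

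The 7 members were named in every class whatever their test, with up to 3 called genes of each list and direction and the 3 genes most like each member, over genes with at least 10 CPM in a class (log2 of CPM + 1); Ptprc and Xist are given as checks of the sort and the libraries. The members and lists were chosen with earlier results of these data known. Some genes that the rule would name are not reported here.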

Additional observations from a re-analysis of the deposited data

Results flagged for a closer look

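Some genes had both KO libraries above both WT libraries in one class and both below in another. Gata2 lay at a log2 difference of 1.38 in megakaryocyte-like cells and -0.26 in endocardial-like cells. Tal1 lay at 0.35 in hemogenic endothelial-like cells and -0.17 in sinusoidal or lymphatic-like cells. Lyl1 was at 0.29 in venous-like and -0.19 in endocardial-like cells, Cbfa2t3 at 0.42 in megakaryocyte-like and -0.29 in endocardial-like cells. Fli1 was opposite in endocardial-like cells, at 0.22 there and -0.75 in primordial germ cell-like cells. None of these 10 values passed on its own, and the differences between these classes were not tested. Over all genes, 24.8% of the tests did not overlap between the genotypes.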

How the results depend on the processing

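The count of members called between KO and WT was 0 in every class under every setting run, except for 1 (Gata2) in megakaryocyte-like cells without WT replicate 2, so its range over the fits leaving out 1 library was 0 to 1. Of 982 recomputed genotype values of members, 95 changed sign. Replicate numbers did not establish pairs, since with 2 pairs the correlations of deviations (0.55, 0.34 and 0.33 in endothelial-like, arterial-like and mesenchymal-like cells) do not suffice. The libraries did differ by replicate number in cell makeup. Erg in pooled endothelial-like cells was 14.6 (WT) and 15.9 (KO) CPM in replicate 1 and 21.3 and 19.4 CPM in replicate 2. The main genotype tests had no replicate term, so such differences stayed in their spread. With the replicate block 0 members were called. The all-gene count in sinusoidal or lymphatic-like cells then went from 7 to 56 and in neural-like cells from 1 to 0. All-gene counts of KO calls were unstable: 21 in endothelial-like cells (7 to 90 over the settings), 2 in hemogenic endothelial-like cells (1 to 81) and 1 in megakaryocyte-like cells (1 to 51). The difference of Tal1 between erythroid-like and megakaryocyte-like cells reversed to -0.44 under total-count scaling, a setting added after seeing the data, as were those leaving out hemoglobin. Of 980 recomputed levels 77 moved by more than 1 SD, 34 of them with doublets kept and 13 with cells under 5% mitochondrial UMIs, a setting that left 7 classes. The top class of Lyl1 became megakaryocyte-like under the mean over cells, that of Cbfa2t3 endocardial-like with doublets kept, that of Erg neural capillary-like with doublets kept (21.3 CPM) and without WT replicate 1 (22.6 CPM), and that of Tal1 erythroid-like with hemoglobin UMIs left out of the total (172 CPM). The 10 to 40 megakaryocyte-like cells per library limit what could be detected there.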
